A study of Mus musculus with 6 samples.

Results

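The IL-6 family of SL4 cells, a luciferase-expressing mouse colorectal cancer (CRC) cell line, was examined through 9 genes chosen by symbol. They comprised 4 ligands (Il6, Lif, Il11 and Clcf1) and 5 receptor chains (Il6ra, Il11ra1, Lifr, Osmr and Il6st), out of 53700 genes listed in the deposited table, and each symbol named 1 identifier. Of the 9 members, 8 had a mean of at least 1 TPM and were tested among 12510 genes, while Il6 was below that filter. The series compared 3 pLV-Control libraries, labelled as SL4 cells without overexpression of SEMA6A, with 3 pLV-SEMA6A libraries of SL4 cells that stably overexpress SEMA6A from a lentivirus. SEMA6A is a transmembrane semaphorin. The labels name no cytokine or other treatment for any library. No separate derivations of the pLV-SEMA6A cells are described, and no source says that the 3 libraries of a group came from separate cultures, so the p-values below measure the spread between these libraries only.

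Cytokines of this family signal through gp130, the protein encoded by Il6st. IL-6 and IL-11 first bind a chain of their own, encoded by Il6ra and Il11ra1, which then brings gp130 molecules together. LIF and CLCF1 (cardiotrophin-like cytokine factor 1) signal through gp130 joined to the LIF receptor, and oncostatin M signals through gp130 joined to OSMR. JAK kinases bound to these chains phosphorylate STAT3, and SOCS3 feeds back on gp130. In colorectal tumours much of the IL-6 and IL-11 comes from stromal cells. The study asked whether SEMA6A acts through STAT3, and it stimulated SL4 cells with IL-6 in separate assays, so the comparison here gives the RNA of the ligands and receptor chains that the cells themselves made.

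The values are read here as TPM (transcript counts corrected for length and set relative to a fixed total), a unit that no label states and that was inferred from their sums and from RSEM, which gives TPM. The listed values summed to between 984474.6 and 986444.5 in pLV-Control and between 977400.0 and 977972.4 in pLV-SEMA6A. TPM hold no read depth, and no detection limit can therefore be given. Sema6a followed the labels, with 0 listed for all 3 pLV-Control libraries against 98.7, 118 and 112 TPM after overexpression. A value at or near 0 need not mean that a transcript was absent. The mitochondrial transcript mt-Co3, which every cell uses, had 0.33 TPM in pLV-SEMA6A replicate 2 and at least 140.6 TPM elsewhere. The reason for that low value was not tested. The epithelial markers other than Lgals4 were near 0 in both groups. Lgals4, the only epithelial marker tested, was a DEG by the criterion given below (log2 fold change −1.24, limma adjusted p = 0.0076). Its libraries read 1.78, 2.33 and 2.33 TPM without overexpression of SEMA6A, and 0, 0.28 and 0.81 TPM with it. Epcam and Cdx2 were listed at 0 in all 6 libraries, 7 of the 8 markers stayed under 1 TPM, and the 8 together summed to 1.91 to 2.82 TPM in pLV-Control and 0.43 to 1.33 TPM in pLV-SEMA6A. Fibroblast markers summed to 15.8 to 16.6 and 13.5 to 14.9 TPM, with none of the 6 at 0 throughout. Pdgfrb was the largest part of both sums, at 10.5 ± 0.268 and 6.66 ± 0.222 TPM (SD, n = 3), while Lum reached at most 0.11 TPM. Of the 6 fibroblast markers, 4 were tested and 3 were DEGs by the criterion given below. Among all genes tested, 15.9% were DEGs, 5.12% higher and 10.8% lower. Col1a1 was higher (1.27 ± 0.106 and 3.6 ± 0.244 TPM, SD, n = 3), and Pdgfra and Pdgfrb were lower. Markers of leukocytes summed to 12.7 to 13.6 and 16.2 to 18.6 TPM, most of it Cd14 and next Cd68. Cd14 was higher in pLV-SEMA6A, at 11.6 ± 0.697 and 16.4 ± 1 TPM (SD, n = 3, log2 fold change 0.47, limma adjusted p = 0.00195), but not a DEG. Cd68 was at 1.28 ± 0.649 and 0.967 ± 0.17 TPM (SD, n = 3, limma adjusted p = 0.574). Adgre1 and Itgam were at 0 throughout, and Ptprc was at 0.04 TPM in pLV-Control replicate 3 and at 0 elsewhere. Lymphocyte markers summed to at most 0.22 TPM (3 of 6 at 0 throughout) and endothelial markers to at most 0.56 TPM (1 of 5). The part of these differences in the values below was not tested.

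Clcf1 and Il6st were the most abundant members, and Lif, Il11 and Osmr were the members that fell past the DEG criterion. A gene was counted as a differentially expressed gene (DEG) at an adjusted p under 0.05 from limma with an absolute log2 fold change over 0.5, with differences taken between log2(TPM + 1) values, so that changes of low genes appear smaller than they were. Of the 8 members tested, 3 were DEGs, all 3 lower in pLV-SEMA6A. Among all genes tested 15.9% were DEGs, 10.8% lower and 5.12% higher. Centring the libraries on their medians shifted log2 fold changes by 0.09, and the DEGs of all genes then split into 1002 higher and 961 lower in place of 640 and 1347, and the same 3 members were DEGs. At an adjusted p under 0.05 without a minimum fold change, 6 of 8 passed, 3 lower and 3 higher, where 47.6% of all genes did (28.2% lower and 19.5% higher). The libraries of the groups did not overlap for the same 6 members, against 58.5% of all genes (34.7% lower and 23.8% higher). Over the 8 members the median log2 fold change was −0.09, beside −0.06 over all genes tested. In these bulk libraries, fewer cells with a transcript and less RNA per cell cannot be told apart.

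**Figure D1:**
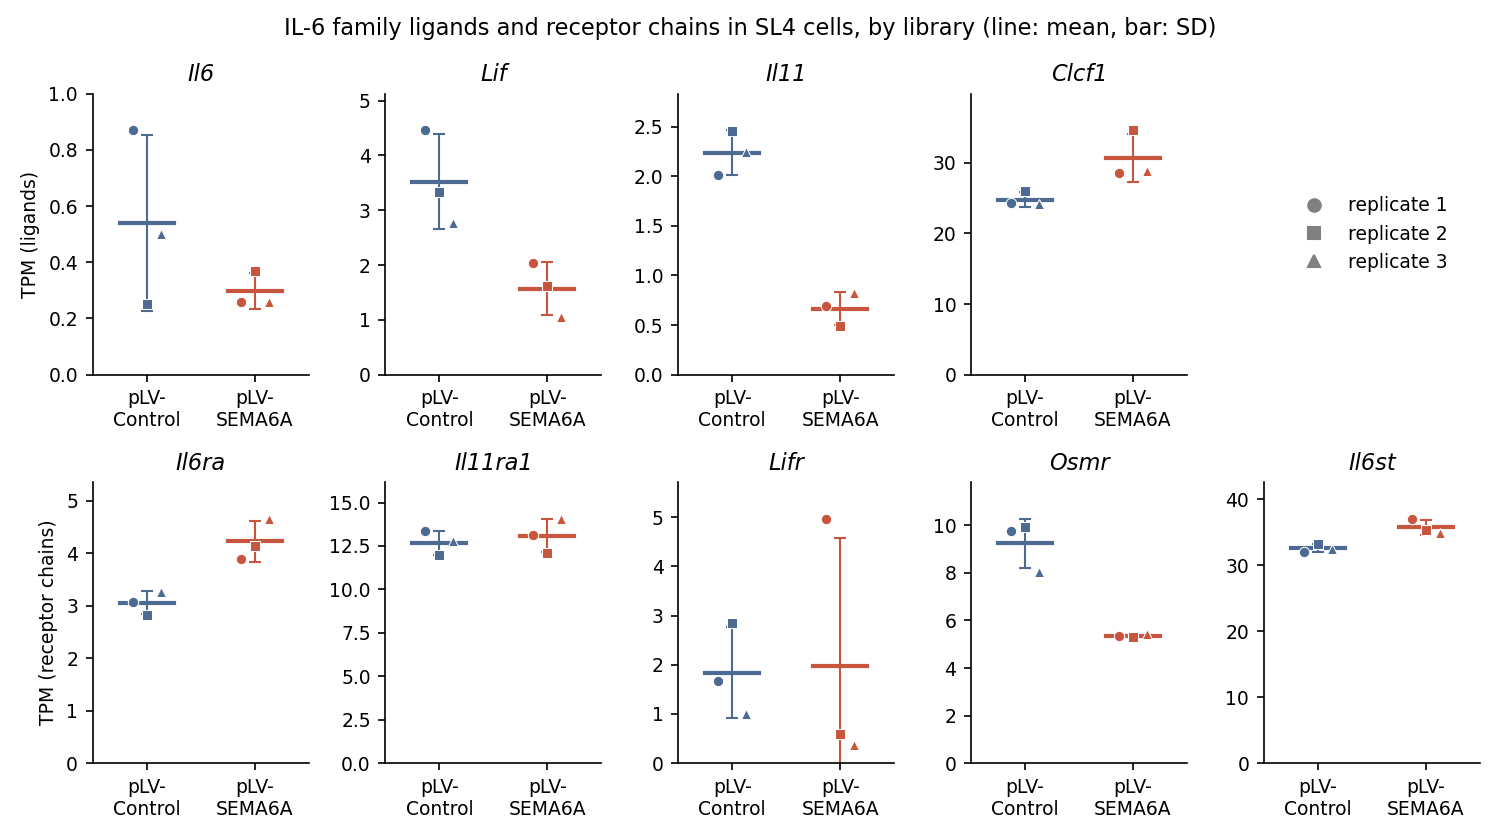
TPM of the 9 members in each library, ligands above and receptor chains below, each panel with its own axis from 0. Points are libraries, with the shape giving the replicate number, lines are group means and bars are SD (n = 3). The lower SD bar of Lifr in pLV-SEMA6A ends at the axis. Lif, Il11 and Osmr lie lower in every pLV-SEMA6A library, Clcf1, Il6ra and Il6st lie higher, and Il6, Il11ra1 and Lifr overlap.

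Among the ligands, Il11 and Lif fell and Clcf1 rose slightly. Il11 encodes a cytokine that stromal and epithelial cells release after injury and under TGF-β. Il11 measured 2.01, 2.46 and 2.25 TPM across the pLV-Control libraries and 0.69, 0.49 and 0.82 TPM across the pLV-SEMA6A libraries. All 3 pLV-SEMA6A libraries were under 1 TPM and all 3 pLV-Control libraries above 2 TPM. The means, 2.24 ± 0.225 and 0.667 ± 0.166 TPM (SD over 3 libraries per group, n = 3), differed 3.36-fold, and the log2 fold change was −0.96 (SE 0.16, limma adjusted p = 0.00299). Fits that each omitted 1 library gave Il11 a log2 fold change between −1.03 and −0.88, and the gene stayed a DEG in 6 of 6 fits. Other genes hold 5.15% of the 31-base stretches of its transcripts.

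Lif encodes leukaemia inhibitory factor, a cytokine known for keeping mouse embryonic stem cells undifferentiated. It measured 4.46, 3.33 and 2.76 TPM across the pLV-Control libraries and 2.03, 1.62 and 1.06 TPM across the pLV-SEMA6A libraries. The groups did not overlap, but they lay close, and pLV-Control replicate 1 stood highest. Group means were 3.52 ± 0.865 and 1.57 ± 0.487 TPM (SD over 3 libraries per group, n = 3), a 2.24-fold difference, and its log2 fold change was −0.81 (SE 0.21, limma adjusted p = 0.0177). Without pLV-Control replicate 1 the log2 fold change was −0.67 and the adjusted p from limma 0.0524, so the call for Lif depended on that library.

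Clcf1 encodes a cytokine that binds the CNTF receptor, and it was the ligand transcript with the highest level. It measured 24.23, 25.98 and 24.14 TPM across the pLV-Control libraries and 28.51, 34.6 and 28.81 TPM across the pLV-SEMA6A libraries. All pLV-SEMA6A libraries were above all pLV-Control libraries, and replicate 2 of each group was the highest. Group means were 24.8 ± 1.04 and 30.6 ± 3.43 TPM (SD over 3 libraries per group, n = 3), and the log2 fold change was 0.29 (SE 0.08, limma adjusted p = 0.0263), below the minimum for a DEG. Clcf1 lost the threshold without pLV-Control replicate 1 (adjusted p = 0.0743) or replicate 3 (adjusted p = 0.0766, both from limma) and without the filter on low values (adjusted p = 0.0578). Its exons overlap another annotated gene, AC109138.7, and 7.33% of its 31-base stretches are shared.

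Il6 itself, the cytokine that gives the family its name, was barely present. It measured 0.87, 0.25 and 0.5 TPM across the pLV-Control libraries and 0.26, 0.37 and 0.26 TPM across the pLV-SEMA6A libraries. The groups overlapped, and the higher mean of pLV-Control, 0.54 ± 0.312 against 0.297 ± 0.0635 TPM (SD over 3 libraries per group, n = 3), came with a spread as wide as the difference. The exact permutation test, two-sided, gave p = 0.4, where 3 libraries against 3 cannot go below 0.1. When no filter on low values was applied, its log2 fold change was −0.23 (limma adjusted p = 0.398).

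The sum of the 4 ligand transcripts did not separate the groups, whereas the sum without Clcf1 did. The 4 summed to 31.6, 32 and 29.6 TPM in pLV-Control and to 31.5, 37.1 and 30.9 TPM in pLV-SEMA6A, with overlapping groups (exact permutation test, two-sided, p = 0.6). The difference in means, 2.09 TPM, was 0.140 TPM without pLV-SEMA6A replicate 2. Il6, Lif and Il11 alone summed to 7.34, 6.04 and 5.51 TPM in pLV-Control and to 2.98, 2.48 and 2.14 TPM in pLV-SEMA6A. These sums did not overlap, with exact p = 0.1, the smallest p this design allows. That separation follows from the falls of Lif and Il11 given above, since Il6 added at most 0.87 TPM, and it is not a further result. Clcf1 made up 79.8% ± 2.62 of the 4-ligand sum in pLV-Control and 92.3% ± 1.54 in pLV-SEMA6A (SD over 3 libraries per group, n = 3). Osm, which lies next to Lif on chromosome 11 and encodes oncostatin M, the ligand of OSMR, was listed at 0 in all 6 libraries. Of the 8 further genes on the list of ligands, 2 were tested and neither passed. Ctf1, which encodes cardiotrophin-1 and whose exons overlap the span of Ctf2, was at 7.44 ± 2.86 and 6.33 ± 1.39 TPM (SD over 3 libraries per group, n = 3, limma adjusted p = 0.615).

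Promoter sequences of Il11, Lif, Osmr and Il6 are given because Il11, Lif and Osmr are the members that fell past the criterion, and Il6 is given beside them as the low ligand. The sequences are the 250 bases before a RefSeq transcript start on GRCm38.p6, the build of the reference table, while the submitters' processing notes name mm39 for the data. Entries matched 8 of the 9 members by symbol, all but Clcf1. Capitals mark matches to letters searched on both strands, namely TGANTCA for AP-1, TTCNNNGAA for STAT, GGG followed by any 2 bases and TTTCC for NF-κB, and TTGCNNAAT for C/EBP. The Il11 window, before the downstream of its 2 listed starts, is chr7:4778142-4778391 on the minus strand. The Lif window is chr11:4257318-4257567 on the plus strand, the Osmr window chr15:6874314-6874563 on the minus strand, and the Il6 window chr5:30012864-30013113 on the plus strand.
Il11: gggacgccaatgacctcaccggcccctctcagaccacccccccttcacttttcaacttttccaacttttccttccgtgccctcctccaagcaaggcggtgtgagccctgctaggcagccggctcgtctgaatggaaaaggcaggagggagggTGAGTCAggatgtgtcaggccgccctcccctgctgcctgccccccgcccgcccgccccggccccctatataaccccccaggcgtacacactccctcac
Lif: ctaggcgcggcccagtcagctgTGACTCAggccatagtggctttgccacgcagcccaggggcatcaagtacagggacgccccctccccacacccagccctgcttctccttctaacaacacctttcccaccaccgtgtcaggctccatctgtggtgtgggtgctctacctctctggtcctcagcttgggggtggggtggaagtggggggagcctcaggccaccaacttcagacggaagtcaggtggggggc
Osmr: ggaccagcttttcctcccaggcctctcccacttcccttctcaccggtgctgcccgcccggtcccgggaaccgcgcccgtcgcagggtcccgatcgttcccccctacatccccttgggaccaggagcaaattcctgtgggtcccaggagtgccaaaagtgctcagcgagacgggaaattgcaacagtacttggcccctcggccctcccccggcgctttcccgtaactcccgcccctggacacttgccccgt
Il6: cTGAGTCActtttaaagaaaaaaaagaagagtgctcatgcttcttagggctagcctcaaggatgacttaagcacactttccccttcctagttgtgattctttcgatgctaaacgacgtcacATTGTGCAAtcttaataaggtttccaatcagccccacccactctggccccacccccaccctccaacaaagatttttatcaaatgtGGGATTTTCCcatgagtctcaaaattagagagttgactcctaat

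The 3 ligands shown each held a match to the AP-1 letters, TGAGTCA at −98 in Il11, TGACTCA at −228 in Lif and TGAGTCA at −249 in Il6, counted back from the transcript start. The window before the other listed start of Il11 held no match to any of the 4 motifs. AP-1 letters occurred in 6.75% of all 32851 promoter windows of this length. None of the other members with an entry held them, and the Osmr window held no match to any of the 4 motifs. The Il6 window also held GGGATTTTCC at −44, as found in 1.41% of windows for NF-κB, and a C/EBP match on the minus strand, as found in 2.11%. No member window held the STAT letters, which occurred in 7.02% of windows. These are matches of letters in a short window and not measured binding. Transcripts of the AP-1 subunits Fosl1 and Jun, named here after their values were seen, were lower in pLV-SEMA6A, from 180 ± 3.07 to 129 ± 2.64 TPM and from 86.1 ± 1.49 to 68.8 ± 3.06 TPM (SD over 3 libraries per group, n = 3), with log2 fold changes of −0.47 and −0.32. Junb and Fos, the other AP-1 subunits listed, were likewise named after their values were seen. Junb was lower, from 72 ± 1.45 to 61.4 ± 3.66 TPM (SD, n = 3, log2 fold change −0.23). Fos, below the filter, was at 0.523 ± 0.245 and 0.68 ± 0.191 TPM (SD, n = 3), with overlapping groups. Centring on library medians left Fosl1 at −0.381, Jun at −0.225 and Junb at −0.137 (limma adjusted p = 0.0577 for Junb). The part of these subunits in the values of Il11 and Lif was not tested.

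Among the receptor chains, Osmr fell, and Il6ra and Il6st rose by less than the DEG minimum. Osmr, on chromosome 15, encodes the chain that pairs with gp130 for oncostatin M, and with the IL-31 receptor for IL-31. It measured 9.76, 9.92 and 8.05 TPM across the pLV-Control libraries and 5.33, 5.32 and 5.41 TPM across the pLV-SEMA6A libraries. The 3 pLV-SEMA6A libraries lay within 0.1 TPM of each other and well below the lowest pLV-Control library. Group means were 9.24 ± 1.04 and 5.35 ± 0.0493 TPM (SD over 3 libraries per group, n = 3), a 1.73-fold difference, and the log2 fold change was −0.68 (SE 0.09, limma adjusted p = 0.0013). Osmr was a DEG in 6 of 6 fits with a library left out, with log2 fold changes from −0.77 to −0.64.

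Il6st, which encodes gp130 itself, was the highest member in both groups and lay above 67.3% of the genes tested. It measured 31.98, 33.19 and 32.44 TPM across the pLV-Control libraries and 37.04, 35.26 and 34.87 TPM across the pLV-SEMA6A libraries. The groups did not overlap, and the difference was small, 1.1-fold between means of 32.5 ± 0.611 and 35.7 ± 1.16 TPM (SD over 3 libraries per group, n = 3). Its log2 fold change was 0.13 (SE 0.04, limma adjusted p = 0.0361). The threshold was lost in 5 of the 6 fits that leave out a library, all but the fit without pLV-SEMA6A replicate 3. Without pLV-SEMA6A replicate 1 the adjusted p of Il6st was 0.105, the highest of those fits. After each library was centred on its median the log2 fold change was 0.22 (limma adjusted p = 0.00444).

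Il6ra, the chain that gives a cell its own response to IL-6, was low. It measured 3.07, 2.83 and 3.27 TPM across the pLV-Control libraries and 3.89, 4.14 and 4.66 TPM across the pLV-SEMA6A libraries. Every pLV-SEMA6A library was above every pLV-Control library, and its exons overlap another annotated gene, Gm42809. Group means were 3.06 ± 0.22 and 4.23 ± 0.393 TPM (SD over 3 libraries per group, n = 3), a 1.38-fold difference, and the log2 fold change was 0.37 (SE 0.10, limma adjusted p = 0.0274). The threshold was lost for Il6ra without pLV-Control replicate 1 or 2 and without pLV-SEMA6A replicate 2 or 3 (limma adjusted p from 0.0616 to 0.0835) and without the filter on low values (0.0923).

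Il11ra1, the chain specific to IL-11, measured 13.34, 11.96 and 12.77 TPM across the pLV-Control libraries and 13.16, 12.1 and 14.04 TPM across the pLV-SEMA6A libraries. The groups overlapped, and the log2 fold change was 0.04 (SE 0.07, limma adjusted p = 0.667). So the ligand Il11 fell while no difference was detected in its receptor. The value of Il11ra1 is uncertain, because 57.7% of its 31-base stretches occur in other genes, mainly in Gm13305, which was listed at 0 in all libraries, as was the related Il11ra2. Its exons also overlap the span of another gene, Ccl27a.

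Lifr, the LIF receptor chain, lies beside Osmr on chromosome 15 with 0 protein-coding genes between them in GENCODE M21. It measured 1.68, 2.84 and 1 TPM across the pLV-Control libraries and 4.97, 0.59 and 0.37 TPM across the pLV-SEMA6A libraries. The highest and the lowest values of all 6 libraries were both in pLV-SEMA6A, where replicate 1 was 13.4 times replicate 3. A spread that wide within the pLV-SEMA6A group was found in 1.96% of the genes tested. The log2 fold change of Lifr was −0.22 (SE 0.59, limma adjusted p = 0.78). Without pLV-SEMA6A replicate 1 it was −0.89 (limma adjusted p = 0.0736), and without replicate 3 of the same group it was 0.17, so no direction can be given for Lifr.

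**Figure D2:**
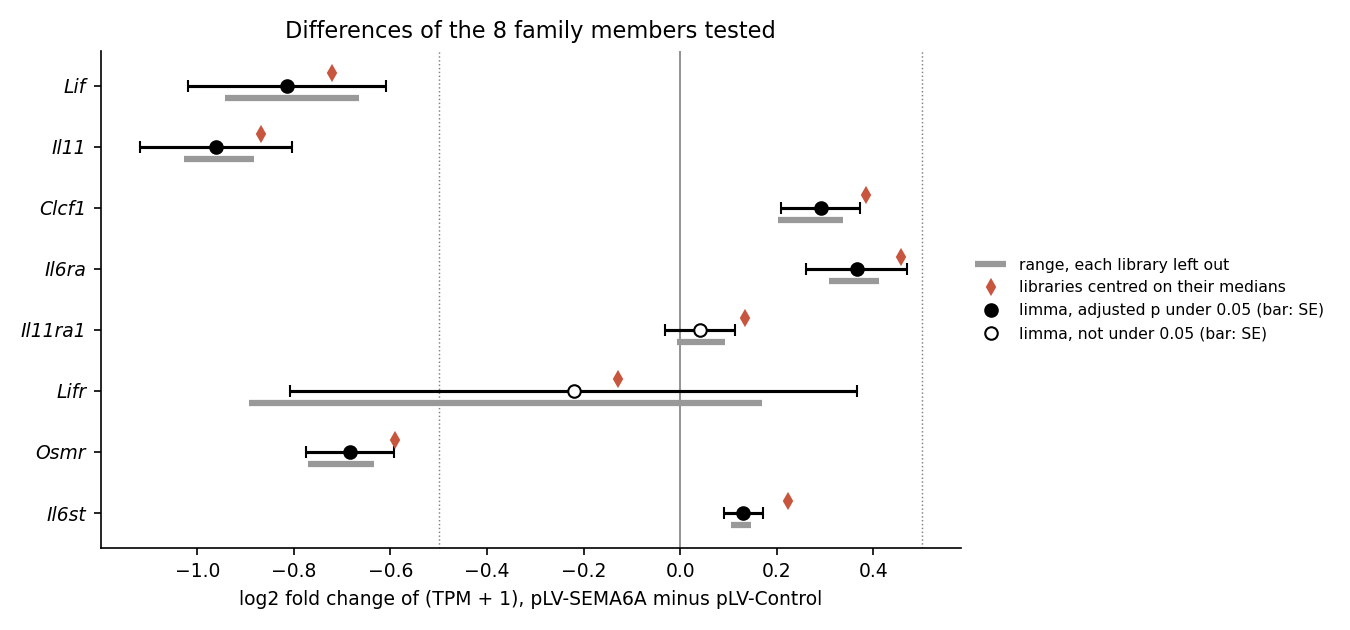
Log2 fold change of (TPM + 1), pLV-SEMA6A minus pLV-Control, for the 8 members tested (Il6 was below the filter). Circles with SE bars are the limma fit on all 6 libraries, grey bars span the fits that leave out each library, diamonds show libraries centred on their medians, and dotted lines mark the DEG minimum of 0.5. Il11, Lif and Osmr lie below −0.5 with and without centring, and the bar of Lifr crosses 0.

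The order of levels was alike at its upper end in both groups. TPM is scaled by transcript length, so levels may be set side by side between genes within a library. Il6st was highest, followed by Clcf1, Il11ra1 and Osmr, and none of these neighbours overlapped in either group. In pLV-Control, Lif and Il6ra came next by mean and overlapped, then Il11 and Lifr, which also overlapped, and Il6 was lowest. The highest Lifr library there, 2.84 TPM, also lay above the lowest libraries of Lif and Il6ra. In pLV-SEMA6A, Il6ra came before Lifr and Lif by mean, then Il11 and Il6. The range of Lifr in that group, 0.37 to 4.97 TPM, took in those of Il6ra, Lif and Il11 and met that of Il6. No firm place can therefore be given to Lifr. Il6ra and Lif thus lay together in pLV-Control, and apart in pLV-SEMA6A, where the lowest Il6ra library, 3.89 TPM, was above the highest Lif library, 2.03 TPM.

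Set against gp130 within each library, the OSMR transcript was lower and the IL-6 receptor transcript higher in all 3 pLV-SEMA6A libraries than in any pLV-Control library, though the exact test could not reach 0.05. Osmr was at 30.5, 29.9 and 24.8% of the Il6st TPM in pLV-Control and at 14.4, 15.1 and 15.5% in pLV-SEMA6A. The groups had to separate here, because Osmr was lower and Il6st higher in every pLV-SEMA6A library. The Osmr ratio thus restates those differences, and its p is no further test of them. Its log2 value in pLV-SEMA6A minus that in pLV-Control was −0.92. Il6ra was at 9.6, 8.53 and 10.1% of Il6st in pLV-Control and at 10.5, 11.7 and 13.4% in pLV-SEMA6A, a log2 ratio higher by 0.33. For each of these 2 ratios the exact permutation test, two-sided, gave p = 0.1, the smallest possible, and 0.2 after adjustment over the 4 ratios tested. Il11ra1 was at 39% ± 2.85 and 36.7% ± 3.14 of Il6st (SD over 3 libraries per group, n = 3) and Lifr at 5.63% ± 2.76 and 5.38% ± 6.96, with overlapping groups and exact p = 0.4 and 0.5.

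**Figure D3:**
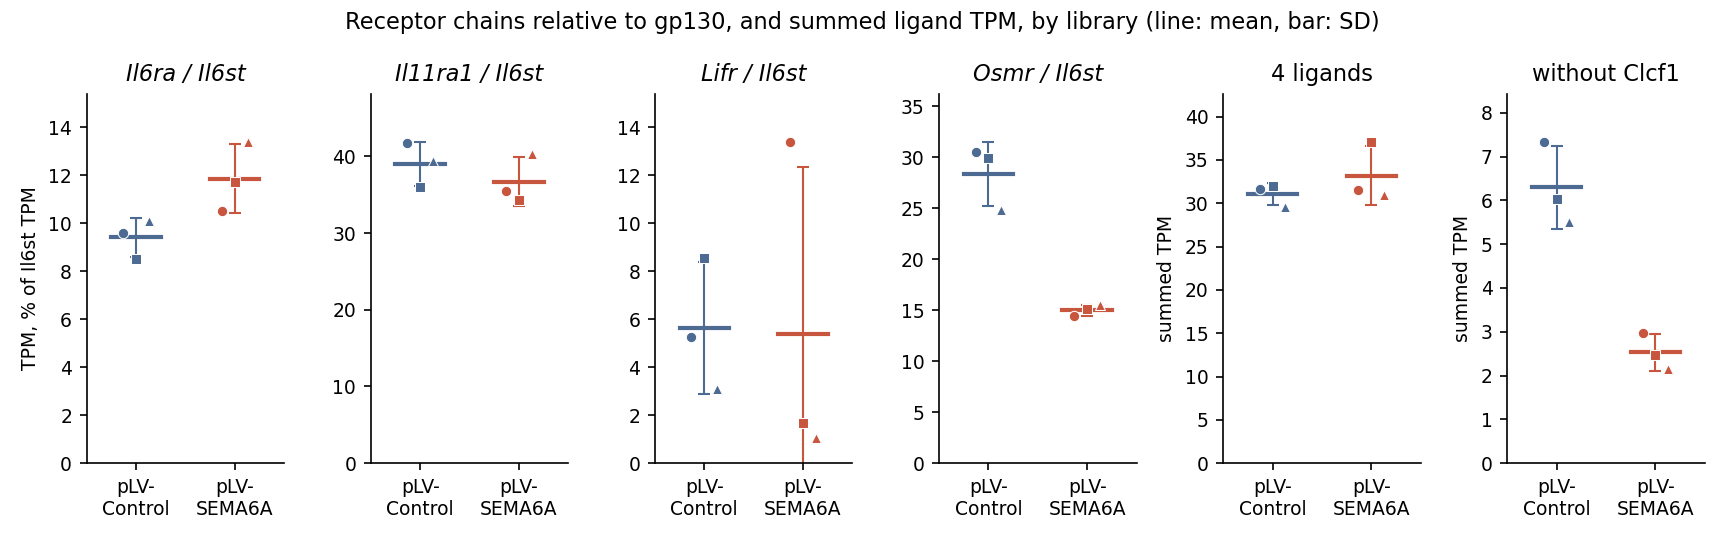
Left 4 panels, TPM of each receptor chain as a percentage of the Il6st TPM of the same library. Right 2 panels, summed TPM of the 4 ligands and of the ligands without Clcf1. Points are libraries, lines are means and bars are SD (n = 3), and the lower bar of Lifr in pLV-SEMA6A ends at the axis. Osmr averages 28.4% of Il6st in pLV-Control and 15% in pLV-SEMA6A, and the ligand sum separates the groups only without Clcf1.

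A receptor gene of the family outside the 9 members stood far above them. Il31ra, which encodes the gp130-like chain that pairs with OSMR and is adjacent to Il6st on chromosome 13, measured 506, 417 and 297 TPM across the pLV-Control libraries and 626, 293 and 639 TPM across the pLV-SEMA6A libraries. It is named after its values were seen, and every library was above the highest Il6st library. The groups overlapped (log2 fold change 0.30, SE 0.34, limma adjusted p = 0.499). Its exons overlap the processed pseudogene Gm3226, which was listed at no more than 0.13 TPM, and whether its reads arise from Il31ra transcripts was not tested. The remaining 3 receptor genes listed were below the filter, and Cntfr, the receptor chain for the product of Clcf1, was at no more than 0.32 TPM.

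Below the receptors, kinase and STAT transcripts moved unequally. These lists were written by hand with earlier results of the data known, so their counts describe and do not test. Each is to be read against all genes tested, of which 47.6% passed an adjusted p of 0.05 and 15.9% were DEGs. Of 12 JAK, STAT and adaptor genes, all tested, 9 passed an adjusted p of 0.05, 2 higher and 7 lower, and 3 were DEGs, all lower, with a median log2 fold change of −0.34 beside −0.06 over all genes. They included Stat5a (−0.97), used by growth hormone and other cytokines, and Tyk2 (−0.88), 1 of the kinases that bind gp130. Stat3, the main STAT of gp130, averaged 23.9 ± 2.79 TPM without and 18.1 ± 0.348 TPM with SEMA6A overexpression (SD over 3 libraries per group, n = 3), for a log2 difference of −0.38 (limma adjusted p = 0.01). Jak1, the kinase that gp130 signalling most depends on, was at 66.9 ± 0.766 and 76.2 ± 1.02 TPM (SD over 3 libraries per group, n = 3), for a log2 difference of 0.19 (limma adjusted p = 0.00231).

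The inhibitors of gp130 signalling passed about as often as all genes did, but all that passed were lower. Of 8 listed, 7 were tested and 4 passed, all lower, where 47.6% of all genes passed and 28.2% were lower. The median log2 fold change was −0.39, and 3 were DEGs, where 15.9% of all genes were, namely Pias1 (−0.58) and Pias3 (−0.53), which bind activated STATs, and Socs2 (−0.53), which acts chiefly on growth hormone signalling. After centring on library medians 0 of these were DEGs, with log2 fold changes of −0.48, −0.44 and −0.44. For Socs3, the feedback inhibitor that gp130 signalling induces, the log2 fold change was −0.39 (limma adjusted p = 0.0365), and of the 6 fits that leave out a library it passed in 1, without pLV-Control replicate 1. Pias3 was at −0.46 without pLV-Control replicate 2 and Socs2 at −0.49 without pLV-SEMA6A replicate 3, below the DEG minimum. Of the 4 genes for shedding of receptor ectodomains, which releases soluble IL-6 receptor, 2 passed, 1 higher and 1 lower, and 0 were DEGs.

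Among genes that STAT3 is known to induce, Lcn2, Bcl3 and Pim1 were lower and Ccnd1 higher. Of 14 listed, 12 were tested and 10 passed, 2 higher and 8 lower, and 6 were DEGs, 1 higher and 5 lower, with a median log2 fold change of −0.29. Of all genes 47.6% passed and 15.9% were DEGs, 10.8% lower. Lcn2, an iron-sequestering acute-phase protein, went from 2.66 ± 0.29 to 0.26 ± 0.271 TPM (SD over 3 libraries per group, n = 3), for a log2 difference of −1.56. Bcl3, a nuclear partner of NF-κB, had −1.06, and Pim1, a survival kinase, went from 33.5 ± 3.65 to 18 ± 0.838 TPM (SD over 3 libraries per group, n = 3) with −0.86. Ccnd1, cyclin D1, rose from 107 ± 1.13 to 168 ± 0.807 TPM (SD over 3 libraries per group, n = 3), for a log2 difference of 0.65. The other DEGs of the list were Il4ra and, named after its values were seen, Saa3, an acute-phase protein (−0.62, limma adjusted p = 0.0207). Saa3 was a DEG in 2 of 6 fits, and its adjusted p from limma was 0.0513 to 0.0626 without pLV-Control replicate 2 or 3 or pLV-SEMA6A replicate 1 or 3. These genes have other inducers too.

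Of the 9 genes listed as regulators of Il6 mRNA stability, 5 passed, 2 higher and 3 lower. Of these, 2 were DEGs, both lower, and the shares were near the 47.6% and 15.9% of all genes. Zfp36 (−0.54) encodes tristetraprolin, which speeds decay of cytokine mRNAs. Nfkbiz (−0.55) encodes a nuclear IκB protein that acts on transcription of Il6 rather than on its stability, so these counts include a gene outside the name of the list. Neither Zfp36 nor Nfkbiz was a DEG after centring on library medians (−0.45 and −0.46), and Nfkbiz was at −0.44 without pLV-Control replicate 3. Of 9 transcription factors known to bind the Il6 promoter, 8 were tested, 4 passed, 1 higher and 3 lower, again near the 47.6% of all genes, and 0 were DEGs.

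Set beside other cytokines and receptors, the falls of Il11 and Lif were not the largest. Of 13 other cytokines listed, 5 were tested and 4 were DEGs, all lower. Il15, a growth factor for natural killer and memory T cells, went from 13.7 ± 1.16 to 2.51 ± 0.693 TPM (SD over 3 libraries per group, n = 3), for a log2 difference of −2.08. Csf1, the macrophage growth factor, went from 919 ± 11.3 to 523 ± 10.9 TPM (−0.81), Il18 had −0.98 and Il34 had −0.63. These log2 differences make the changes of low genes appear smaller. By ratio of mean TPM, Il15 fell 5.44-fold, Il11 3.36-fold, Il18 2.7-fold, Lif 2.24-fold, Csf1 1.76-fold and Il34 1.59-fold. Of 16 other cytokine receptor chains, 13 were tested and 8 passed, 1 higher and 7 lower, where 47.6% of all genes passed, and 3 were DEGs, where 15.9% were, all lower, namely Ghr (−0.70), Ifnar2 (−0.64) and Il4ra (−0.54). Il4ra, which also stands among the STAT3-induced genes, was at −0.48 without pLV-Control replicate 2, at −0.46 without pLV-SEMA6A replicate 2 and at −0.45 after centring. The difference between the family and these lists was not tested.

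**Figure D4:**
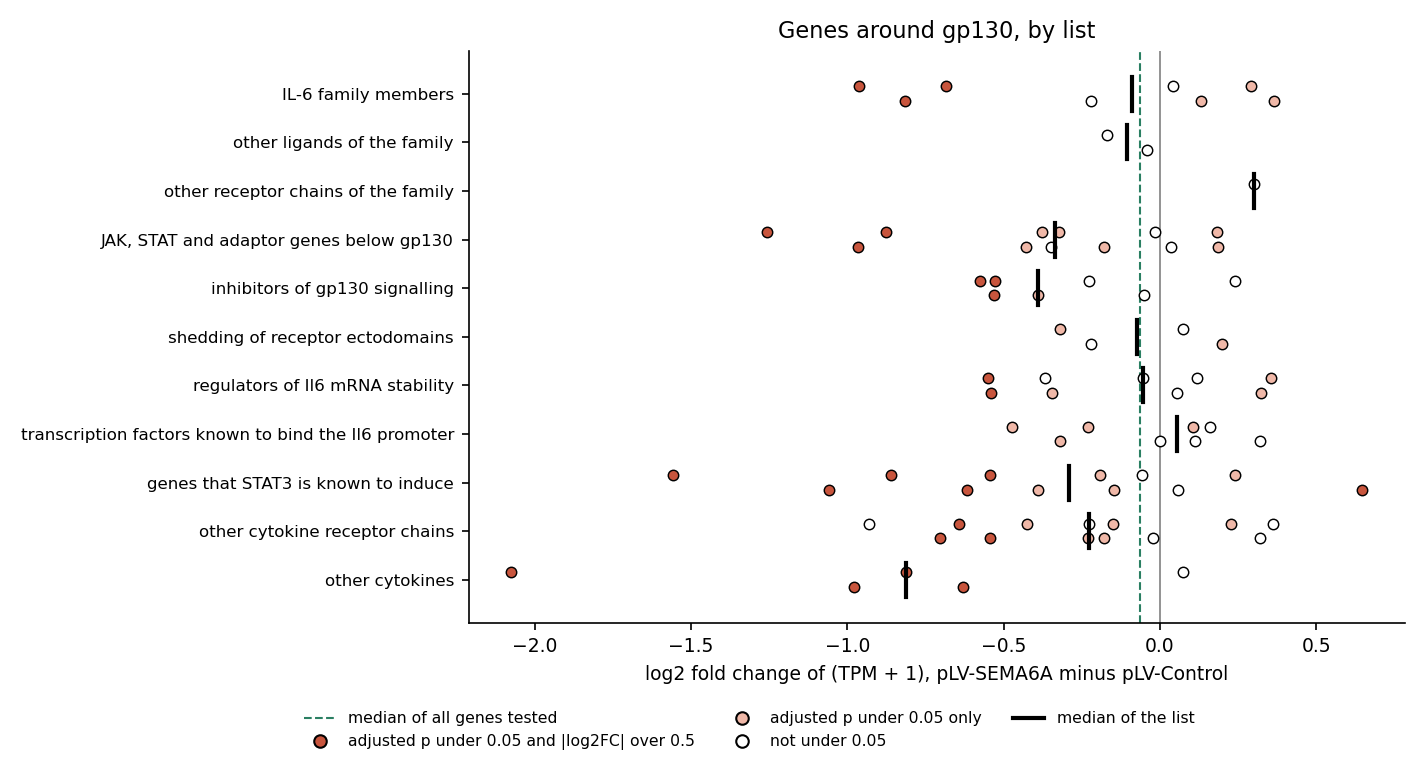
Log2 fold change of (TPM + 1), pLV-SEMA6A minus pLV-Control, of every tested gene in each list, 1 point per gene. Dark points passed an adjusted p of 0.05 and a log2 fold change of 0.5, pale points the p only, and open points neither. Black bars are list medians and the dashed line is the median of all genes, −0.06. Most dark points lie left of 0, and Ccnd1 is the dark point on the right.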

How the data were processed

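RNA-seq was performed on SL4 cells, with 3 pLV-Control and 3 pLV-SEMA6A libraries grouped by the sample titles. Poly-A mRNA was captured, fragmented, reverse transcribed with random primers and sequenced on an Illumina platform. Per library, values with 2 decimals, read as TPM, were deposited by the authors, as were 2 columns of group means, which were not used. The submitters' processing notes name HISAT, Bowtie2, RSEM and mm39, with no versions or roles, and the annotation is not given in the sources used here. RSEM divides reads shared between genes by estimation, which can move values of genes with near-identical copies. The supplement names DESeq2, which needs counts and was not run.

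A limma model (version 3.58.1, R 4.3.3, intensity trend, group alone) was fitted to log2(TPM + 1) of the 12510 genes whose mean reached 1 TPM, with Benjamini-Hochberg adjustment. Ratios and sums were compared by exact permutation. The model was tested on simulated data for this comparison with 12510 genes, where it called 81.5% of 200 genes given a log2 change of 1, and 3 unchanged genes.

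The members and lists were chosen with earlier results of these data known. Named genes are the members, up to 4 DEGs of each list with the largest change, Jak1, Stat3 and Socs3, and some results are not reported here. Ctf1, Osm, Cntfr, Il31ra, Fosl1, Jun, Junb, Fos, Saa3 and the genes sharing reads were added after their values were seen. Gene positions and shared stretches are from GENCODE M21 (GRCm38), which holds 97% of the identifiers. Alternatives were a pseudocount of 0.1, no filter, centring, other minimum fold changes, no trend, a replicate block and leaving out each library.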

Additional observations from a re-analysis of the deposited data

How the results depend on the processing

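The 3 members counted as DEGs, Il11, Lif and Osmr, remained DEGs with a pseudocount of 0.1, without the filter, with centring, without the trend option and with the replicate block, and leaving out a library gave 2 to 3. Without a minimum fold change, 6 members, 44 of the 71 tested genes on the pathway lists (20 with the minimum) and 5959 of all genes (1987 with it) passed, and raising the minimum log2 fold change to 1 left 0, 4 and 385. At that minimum Il11 is left out at −0.96, and with a pseudocount of 0.1 it is at −1.63. Centring turned the DEGs of all genes from 640 higher and 1347 lower into 1002 and 961, and the DEGs on the pathway lists into 14. Adding a replicate block gave 1924 DEGs, 3 of them members. Same-numbered libraries did not deviate together (correlations from −0.08 to −0.02), and no library correlated best with its own number. The block left Il6ra at an adjusted p of 0.0574 and Il6st at 0.0908, both above 0.05, and changed no other call of a member. For the ratios and ligand sums, 3 pairs cannot give an exact p under 0.25. The difference in summed ligands, 2.09 TPM, became −3.76 TPM without Clcf1. It was 0.140 TPM without pLV-SEMA6A replicate 2 and 3.21 TPM without replicate 3 of that group. Leaving out a library gave −0.006 to 0.093 for Il11ra1 and −0.89 to 0.17 for Lifr, and moved the Lifr ratio to Il6st, −0.85 on the log2 scale, to between −1.96 and −0.13. The number of reads behind low values such as Il6 is unknown, since TPM keeps no depth.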
